A study of Mus musculus with 6 samples.

Results

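Uncoupling proteins and the antioxidant enzymes that meet mitochondrial superoxide and hydrogen peroxide are described here in LPS-treated BV2 cells. The members were the 10 mouse genes Ucp2, Ucp3, Slc25a14, Sod1, Sod2, Gpx1, Prdx3, Prdx5, Txn2 and Cat, of 23462 genes that the arrays could be matched to. They were chosen by name and not by a measured value, although earlier results of these data were known. Every probe whose accession belongs to one of the 10 genes was kept, 13 probes in all. Ucp2, Slc25a14 and Txn2 were each measured by 2 probes and the other 7 genes by 1.

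RNA came from 6 arrays, 3 labelled without PGC-1α overexpression (control) and 3 labelled with it (overexpression), so the comparison asks how these genes differ when the coactivator is overexpressed under LPS. BV2 cells are a mouse microglial line made immortal with a retroviral oncogene, and LPS, the endotoxin of Gram-negative bacteria, was given to every array's cells, controls included; its dose and time are not in the labels. In the methods, a lentivirus carried the PGC-1α coding sequence or a negative control, and overexpressing cells were selected with puromycin, while the labels do not say which virus the control arrays' cells carried. Nothing in the sources says that the replicates were separate cultures, so p-values measure only the spread between these samples, which may be technical.

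Superoxide leaks from the respiratory chain, superoxide dismutases turn it into hydrogen peroxide, and glutathione peroxidases, peroxiredoxins and catalase reduce that peroxide to water. Uncoupling proteins are inner-membrane carriers, of which the founding member Ucp1 lets protons return to the matrix without making ATP; for the others the transported substrate is less settled. PGC-1α, a coactivator of genes for mitochondrial biogenesis, is known to induce several of these enzymes in other tissues, and LPS is known to induce Sod2 through NF-κB.

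The start sites of 4 members are shown. Slc25a14 is included because its brighter probe was lower under every normalization tried while its dimmer probe was not. Ucp2 is the uncoupling protein best known in macrophages, and Sod2 is the LPS-responsive dismutase. Gpx1 had the largest positive log2 fold change among members under 75th percentile scaling. Each window runs from 250 bases before to 50 bases after an annotated start, 5′ to 3′ on the strand of the gene, from RefSeq on build GRCm38.p6, at chrX:48623328-48623627 (plus strand), chr7:100493108-100493407 (plus strand), chr17:13007589-13007888 (plus strand) and chr9:108338830-108339129 (plus strand). Capitals mark the antioxidant response element core (TGACNNNGC, either strand) in Slc25a14 and Ucp2 and the NF-κB site (either strand) in Sod2 and Gpx1.
Slc25a14: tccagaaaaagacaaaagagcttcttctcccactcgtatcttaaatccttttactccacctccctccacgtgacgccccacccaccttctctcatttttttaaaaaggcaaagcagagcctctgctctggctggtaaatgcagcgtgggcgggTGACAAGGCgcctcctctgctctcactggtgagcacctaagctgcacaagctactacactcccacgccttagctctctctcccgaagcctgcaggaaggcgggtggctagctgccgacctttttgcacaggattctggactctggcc
Ucp2: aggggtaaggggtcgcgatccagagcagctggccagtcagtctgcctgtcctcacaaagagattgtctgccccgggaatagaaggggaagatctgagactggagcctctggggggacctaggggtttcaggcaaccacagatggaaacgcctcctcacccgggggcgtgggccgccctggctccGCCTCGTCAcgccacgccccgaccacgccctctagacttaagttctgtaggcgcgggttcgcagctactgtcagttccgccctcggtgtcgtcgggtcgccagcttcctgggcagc
Sod2: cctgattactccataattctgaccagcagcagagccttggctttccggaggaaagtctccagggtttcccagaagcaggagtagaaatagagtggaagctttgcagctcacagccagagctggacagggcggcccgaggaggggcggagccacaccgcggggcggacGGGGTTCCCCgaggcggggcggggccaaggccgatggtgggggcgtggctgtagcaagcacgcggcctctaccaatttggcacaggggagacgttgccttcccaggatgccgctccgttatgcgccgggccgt
Gpx1: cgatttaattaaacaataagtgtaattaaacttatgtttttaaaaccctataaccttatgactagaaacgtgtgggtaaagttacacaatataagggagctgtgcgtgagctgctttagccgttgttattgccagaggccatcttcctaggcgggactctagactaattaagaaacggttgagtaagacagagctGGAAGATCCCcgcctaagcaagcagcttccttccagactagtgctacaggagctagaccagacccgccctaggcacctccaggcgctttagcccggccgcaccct

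The antioxidant response element core, to which NRF2 binds, was found in windows of 3 members (Slc25a14, Sod1 and Ucp2) and in 12.4% of the 32851 windows of 300 bases searched. The NF-κB site was found in 3 members (Cat, Gpx1 and Sod2) and in 8.5% of all windows. The GC box GGGCGG, a site for SP factors, was found in 9 members, all but Ucp3, and in 35.7% of all windows, and no capital above overlaps one. Neither the ERR element TNAAGGTCA, present in 1.3% of windows, nor the FOXO site GTAAACA, present in 3.6%, was found in a member. These are matches of letters in a short window, and no binding was measured on these arrays. Slc25a14 has 3 annotated windows that overlap and share 1 core. The members lie on 8 chromosomes, with Prdx3 and Prdx5 both on chromosome 19, and Ucp2 and Ucp3 are neighbours on chromosome 7 with 0 genes between them in the RefSeq table.

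Each value below is the log2 intensity of a probe minus the 75th percentile of its array, here called the scaled log2 value, and a log2 fold change is overexpression minus control. A probe passed at an adjusted p of 0.05 in limma with Benjamini-Hochberg adjustment over all 39295 probes tested. The smallest two-sided exact permutation p for 3 arrays against 3 is 0.1. Of the 12 member probes tested, 6 passed as higher, where 35.2% of all probes did, and 1 passed as lower, where 18.2% of all probes did. After quantile normalization, which gives each array the same distribution, 0 member probes passed as higher (22.7% of all) and 1 as lower (20.4%). Cyclic loess, a normalization fitted along the intensity scale, also left 0 higher (18.3% of all) and 1 lower (22.7%). The probe that passed under all 3 normalizations was the same Slc25a14 probe. The median log2 fold change of the 12 tested member probes was 0.49 against 0.25 over all probes tested, and 0.08 against 0.05 after quantile normalization. Among the 11 member probes with a value on every array, 6 had every overexpression array above every control array, where 41.4% of all probes did, and 1 had every overexpression array below, where 22.2% did.

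The 75th percentile of intensity was 1617.0 to 1892.7 in control and 855.8 to 1268.1 in overexpression, and 41122 to 45165 of 59305 spots per array were well above background. All member probes were well above background on all 6 arrays and none was saturated. Ppargc1a, which encodes PGC-1α, was near background: its brighter probe read an intensity of 21.8, 19.6 and 9.1 in control and 22.3, 22.1 and 21.2 in overexpression. Its other probe leaned the other way, at 14.1, 20.3 and 13.8 in control and 9.1, 12.4 and 15 in overexpression. Ppargc1a gives no firm check of the labels, so directions refer to the arrays as labelled. Of 8 microglia or macrophage markers, 7 were detected on all 6 arrays and Cx3cr1 was not. Their summed linear level relative to the 75th percentile was 103.75 to 106.99 in control and 148.58 to 182.03 in overexpression. Of the 7 tested, 5 were higher and 0 lower, where 34.6% and 18.4% of all genes were. After quantile normalization 0 passed in either direction, where 21.2% of all genes were higher and 20.9% lower. The summed level of 3 neuron markers, mostly from Snap25, was 21.98 to 27.79 in control and 35.21 to 48.41 in overexpression. Those of 3 astrocyte, 3 oligodendrocyte and 3 endothelial markers were at most 1.47 on any array. Not all of these 12 were tested (2 astrocyte, 2 neuron, 3 oligodendrocyte and 2 endothelial markers were). Of those tested, Aqp4, Rbfox3, Snap25 and Cldn5 passed as higher and 0 as lower. Over all genes, 34.6% passed as higher and 18.4% as lower. Only 1 of the 3 neuron markers was detected on all 6 arrays. Rbfox3 was near background, with a highest intensity of 26.8, and did not pass after cyclic loess (0.74). After quantile normalization Aqp4, Rbfox3 and Cldn5 still passed as higher, Snap25 did not (0.08), and Pecam1 passed as lower (-0.66, adjusted p = 0.0085 in limma). The part of these markers in the results was not tested.

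**Figure D1:**
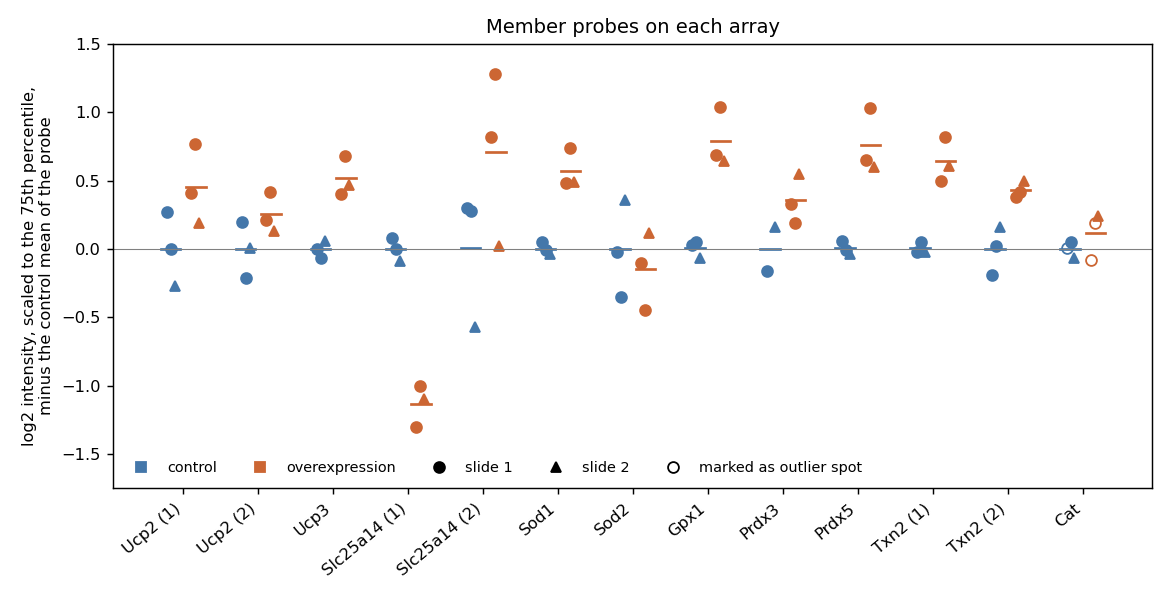
Scaled log2 value of each member probe on each array minus the mean of its control arrays (vertical axis, log2), with lines at group means, circles for slide 1 and triangles for slide 2; open symbols are Cat spots marked as outliers. The overexpression arrays lie above the controls for Ucp3, Sod1, Gpx1, Prdx5 and both Txn2 probes and below them for the first Slc25a14 probe.

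Among the uncoupling proteins, 1 probe of Slc25a14 was lower, Ucp3 passed as higher and Ucp2 did not pass. Slc25a14 (UCP5, also called brain mitochondrial carrier protein 1) was lower by its brighter probe, which the array design assigns to NM_001290703. That probe read -1.50, -1.58 and -1.67 in control and -2.88, -2.58 and -2.68 in overexpression. The groups are separated by a gap wider than the spread within either. The difference was -1.13 on the log2 scale (standard error 0.14, adjusted p = 0.00083 in limma; exact permutation p = 0.1), or 0.46-fold with a 95% interval of 0.37 to 0.57. Before any scaling between arrays the intensity was 572.8, 544.2 and 594.5 in control against 157.4, 142.9 and 198.3. It was -1.15 after quantile normalization (adjusted p = 0.00097 in limma), -1.21 after cyclic loess (adjusted p = 0.00073 in limma) and -1.03 in the authors' own log2 values (adjusted p = 0.0015 in limma). Of the values of all tested probes, 6.8% were at or below it.

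The other Slc25a14 probe, assigned to NM_011398 did not pass. It was dim and read -4.46, -4.48 and -5.33 in control and -3.94, -3.48 and -4.74 in overexpression. In both groups the array on the second slide was the lowest, and the groups overlap. Its log2 fold change was 0.70 (95% interval -0.11 to 1.52, adjusted p = 0.12 in limma), and before scaling its intensities were nearly equal array by array on each slide, 73.6, 72.8 and 47.1 against 75.6, 76.7 and 47.4. With the slide as a block it passed (adjusted p = 0.0058 in limma), and without overexpression replicate 3 it also passed at 1.05 (adjusted p = 0.022 in limma). The brighter probe exceeded the dimmer by 2.96, 2.90 and 3.66 in control and by 1.06, 0.90 and 2.06 in overexpression. These differences do not overlap between the groups (a difference in log2 fold change of -1.83, exact permutation p = 0.1, two-sided). Averaging both probes gave -0.21 (adjusted p = 0.42 in limma), so the call on the gene depends on which probe stands for it.

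**Figure D2:**
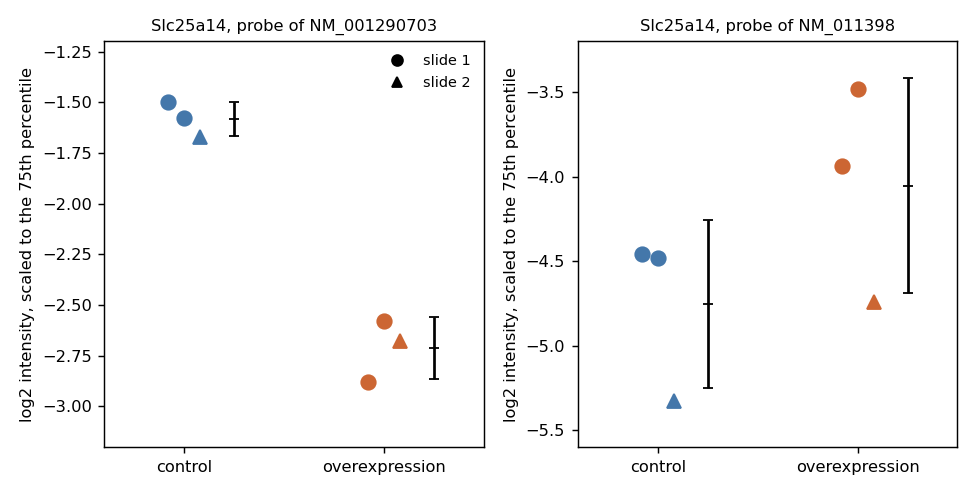
Scaled log2 values (vertical axes, each with its own range) of the 2 Slc25a14 probes on each array, circles for slide 1 and triangles for slide 2, with the group mean and SD beside them (n = 3). The NM_001290703 probe averaged -1.58 in control and -2.71 in overexpression, and the NM_011398 probe -4.76 and -4.05.

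Ucp2, the uncoupling protein of macrophages and lymphoid tissue, did not pass by either probe. The first read 2.82, 2.55 and 2.28 in control and 2.96, 3.32 and 2.74 in overexpression, a log2 fold change of 0.46 (95% interval -0.01 to 0.92, adjusted p = 0.085 in limma). The second read 2.40, 1.99 and 2.21 against 2.41, 2.62 and 2.33, a log2 fold change of 0.26 (95% interval -0.11 to 0.62, adjusted p = 0.20 in limma). Both overlap between the groups. The scaling decided the sign of the second, which was -0.04 after quantile normalization, and before scaling all 3 overexpression arrays were below the controls at both probes. The first probe passed with the slide as a block (adjusted p = 0.029 in limma) and without overexpression replicate 3 (0.59, adjusted p = 0.049 in limma).

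Ucp3, the relative known from skeletal muscle, read 3.32, 3.25 and 3.38 in control and 3.72, 4.0 and 3.79 in overexpression. Its only probe was brighter than both Ucp2 probes on every array, and the specificity of the probe was not tested. The groups do not overlap, and the probe passed at 0.52 (standard error 0.14, adjusted p = 0.014 in limma). Before scaling the groups overlapped, at 16161.7, 15494 and 19761.9 in control and 15240.3, 13677.3 and 17589 in overexpression. After quantile normalization the groups overlapped and the log2 fold change was 0.01 (95% interval -0.24 to 0.26). Without control replicate 2 the call was lost (0.48, adjusted p = 0.055 in limma). Its log2 fold change was close to the 0.46 of the first Ucp2 probe, and a test of the difference between Ucp2 and Ucp3 was not run.

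The 2 superoxide dismutases differed in whether they passed. Sod1, the copper and zinc enzyme of the cytosol and intermembrane space, read 3.94, 3.88 and 3.85 in control and 4.37, 4.63 and 4.38 in overexpression. The groups do not overlap, and Sod1 passed at 0.57 (standard error 0.13, adjusted p = 0.0098 in limma). Before scaling its groups overlapped, at 24861.9, 23962 and 27315.5 in control and 23933.8, 21160 and 26476 in overexpression. Under quantile normalization its groups overlapped and the value was -0.02 (95% interval -0.28 to 0.25). Sod2, the manganese enzyme of the matrix, read -1.02, -1.35 and -0.64 in control and -1.10, -1.45 and -0.88 in overexpression. Its groups overlap throughout, with the lowest array of each group on slide 1. The log2 fold change was -0.14 (95% interval -0.65 to 0.37, adjusted p = 0.60 in limma), and after quantile normalization it was -0.11 (95% interval -0.64 to 0.42). A test of the difference between both genes was not run.

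Of the enzymes that remove peroxide, Gpx1 and Prdx5 had the largest positive log2 fold changes under 75th percentile scaling, and their order depended on the normalization, with Prdx5 at 0.26 and Gpx1 at 0.22 after cyclic loess. Gpx1 is the selenium-dependent glutathione peroxidase of cytosol and mitochondria, and it read 4.24, 4.26 and 4.14 in control and 4.90, 5.25 and 4.85 in overexpression. The overexpression arrays all lay above the controls, by 0.79 on the log2 scale (standard error 0.15, adjusted p = 0.0045 in limma) or 1.73-fold. Quantile normalization left 0.17 (95% interval -0.13 to 0.47), with overlapping groups. Before scaling, its intensity was 30470.2, 31246.9 and 33346.5 in control and 34541.8, 32520.2 and 36643.8 in overexpression.

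Prdx5, a peroxiredoxin of mitochondria and peroxisomes, had nearly the same profile. It read 3.73, 3.66 and 3.63 in control and 4.32, 4.70 and 4.27 in overexpression, without overlap (0.76, standard error 0.15, adjusted p = 0.0056 in limma), and its quantile-normalized value was 0.18 (95% interval -0.11 to 0.46). Prdx3, the peroxiredoxin of the matrix, did not pass. It read 1.82 and 2.14 on control replicates 1 and 3 and 2.31, 2.17 and 2.53 in overexpression, and the spot on control replicate 2 was dropped as an outlier, which leaves 2 control values in the fit. The log2 fold change was 0.36 (95% interval -0.08 to 0.80, adjusted p = 0.14 in limma). With that spot kept it was 0.34 (adjusted p = 0.096 in limma).

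Txn2, the mitochondrial thioredoxin that keeps Prdx3 and Prdx5 reduced, passed by both probes. The brighter read 3.58, 3.65 and 3.58 in control and 4.10, 4.42 and 4.21 in overexpression (0.64, standard error 0.14, adjusted p = 0.0070 in limma). The dimmer read 1.87, 2.08 and 2.22 against 2.44, 2.48 and 2.56 (0.44, standard error 0.14, adjusted p = 0.031 in limma). Neither overlapped, and the log2 fold changes of the probes differed by 0.20 (exact permutation p = 0.3, two-sided). The dimmer probe no longer passed without control replicate 1 (0.34, adjusted p = 0.10 in limma), control replicate 2 (0.45, 0.077), overexpression replicate 1 (0.46, 0.073) or overexpression replicate 3 (0.40, 0.082). After quantile normalization the probes were at 0.09 and 0.15, neither passing.

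Cat, the catalase of peroxisomes, was not tested, because its only probe was marked as an outlier spot on control replicate 1 and overexpression replicates 1 and 2. The remaining spots read 2.12 and 2.00 in control and 2.31 in overexpression. With the marked spots kept, the values were 2.08, 2.12 and 2.00 against 1.99, 2.26 and 2.31, which overlap (0.12, 95% interval -0.20 to 0.45, adjusted p = 0.48 in limma). The scaling decided the sign: with those spots kept, quantile normalization gave -0.14. Before scaling every overexpression array was below every control array.

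**Figure D3:**
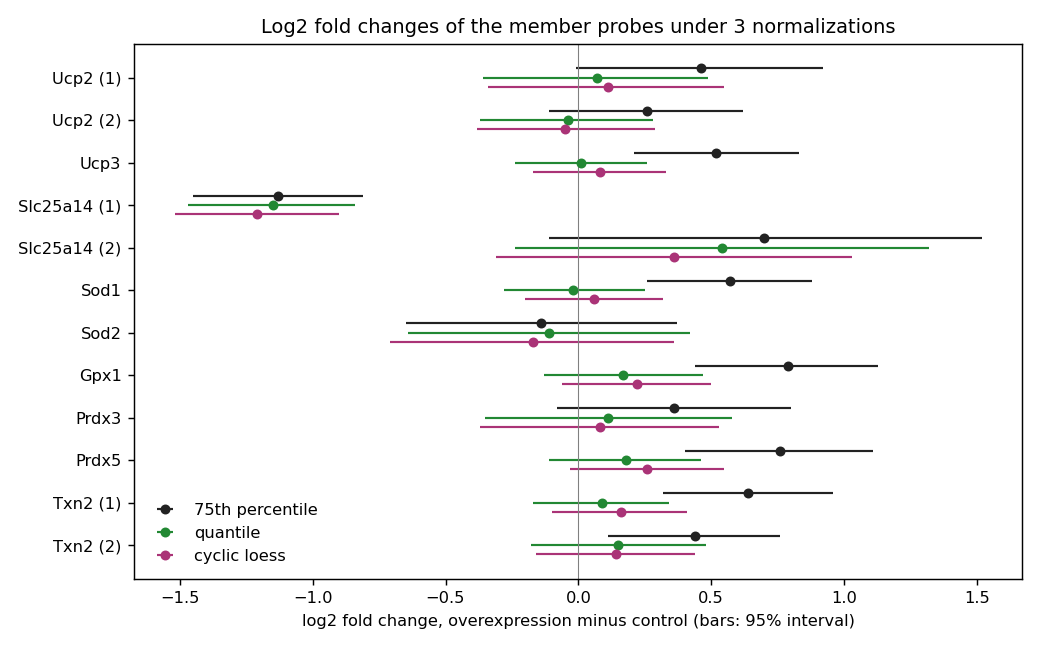
Log2 fold change (horizontal axis, overexpression minus control) with its 95% interval for the 12 tested member probes under 75th percentile scaling, quantile normalization and cyclic loess. The first Slc25a14 probe lies at -1.13, -1.15 and -1.21, and the intervals of Ucp3, Sod1, Gpx1, Prdx5 and Txn2 reach 0 under the latter 2 normalizations.

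The members that passed as higher share a high signal. All tested probes were ranked by their mean level and cut into 10 bins of 3929 or 3930 probes, bin 10 the brightest. Bin 10 held 6 member probes (Ucp2, Ucp3, Sod1, Gpx1, Prdx5 and Txn2) and bin 9 held 3 (Ucp2, Prdx3 and Txn2). In bin 10 the median log2 fold change of all probes was 0.53, and 66.3% of them passed as higher and 0.5% as lower. The 6 members there lay between 0.46 and 0.79, with Ucp2 and Ucp3 (0.52) below that median and Gpx1, Prdx5, Txn2 and Sod1 above it. In bin 9 the median was 0.21 and the members were at 0.26, 0.36 and 0.44. Both quantile normalization and cyclic loess, which act on the whole intensity range, moved the median of bin 10, to 0.00 and 0.03. The first Slc25a14 probe belongs to bin 5, with a median of 0.12, and Sod2 to bin 6, with a median of 0.01. A probe's signal also depends on its sequence, so these bins do not order the genes by transcript abundance. The cause of this dependence on level was not tested.

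**Figure D4:**
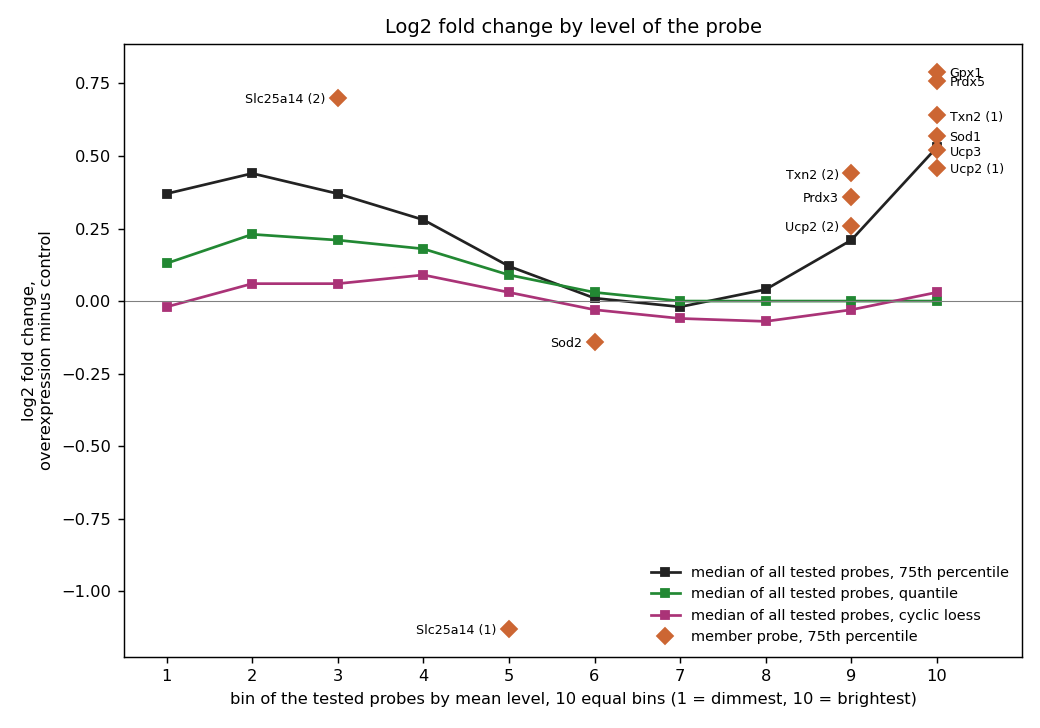
Log2 fold change (vertical axis) against the bin of mean level (horizontal axis, 10 = brightest): lines are medians of all tested probes under 3 normalizations, and diamonds are member probes under 75th percentile scaling. Members in bin 10 lie around its median of 0.53, while the first Slc25a14 probe lies at -1.13 beside a median of 0.12.

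Both slides held both groups. On slide 1 (2 arrays a group) and slide 2 (1 array a group, no test), respectively, the difference was -1.19 and -1.01 for the first Slc25a14 probe, 0.82 and 0.71 for Gpx1, 0.82 and 0.64 for Prdx5, and 0.59 and 0.53 for Sod1. It was 0.57 and 0.41 for Ucp3, 0.65 and 0.63 for the brighter Txn2 probe, 0.48 and 0.35 for the dimmer, and -0.09 and -0.25 for Sod2. The first Ucp2 probe gave 0.46 on each slide, the second 0.32 and 0.12, and the dim Slc25a14 probe 0.76 and 0.59. Each tested member with a value on both slides thus had the same sign on both under this scaling. After quantile normalization the slides differed in sign for Ucp3 (0.02 and -0.01) and Sod1 (-0.06 and 0.07). With the slide as a block, 10 member probes passed, the added ones being the first Ucp2 probe, the dim Slc25a14 probe and Prdx3 (0.41, adjusted p = 0.046 in limma).

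The rest of the pathway was described with 61 other genes in 6 lists, each gene by its brightest tested probe. Of 46 tested, 16 were higher and 6 lower, where 34.6% and 18.4% of all genes were; after quantile normalization 5 were higher and 9 lower, where 21.2% and 20.9% of all genes were. Their median log2 fold change was 0.24, against 0.23 over all genes. Among the uncoupling relatives, Ucp1, the thermogenic protein of brown fat, and Slc25a27 (UCP4) were not tested, and Slc25a30 did not pass (0.26, adjusted p = 0.10 in limma).

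The other peroxiredoxins, glutathione peroxidases and dismutase genes had 7 higher and 0 lower of 8 tested, a count that became 2 and 0 after quantile normalization. Only Gpx2 passed as higher under 75th percentile scaling (0.50), quantile normalization (0.48) and cyclic loess (0.42). Gpx5, by a dim probe that did not pass after cyclic loess (0.39), stood at 0.78 (0.56 after quantile normalization), Prdx1, the main cytosolic peroxiredoxin, at 0.66 (-0.01, not passing) and Prdx6 at 0.59 (-0.01, not passing). Prdx1 had values on 2 arrays of each group. Like Gpx1 and Prdx5, the last pair had bright probes.

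In the thioredoxin, glutaredoxin and NADPH list, 6 of 12 were higher and 2 lower (1 and 2 after quantile normalization). Txnip, which binds and inhibits thioredoxin, read 3.96, 3.94 and 3.75 in control and 5.13, 5.34 and 5.05 in overexpression. It rose by 1.29 (adjusted p = 0.00051 in limma) and by 0.68 after quantile normalization, though its other probe gave 0.46 and then -0.15, the latter not passing. Glrx2, a mitochondrial glutaredoxin fitted without the control replicate 2 spot, was at 0.64 and Glrx5, which serves iron-sulphur cluster assembly, at 0.56, and neither passed after quantile normalization. Srxn1, the sulfiredoxin that restores overoxidized peroxiredoxins, read 1.55, 1.57 and 1.53 in control and 0.31, 0.81 and 0.44 in overexpression. It fell to a log2 fold change of -1.03 (adjusted p = 0.0020 in limma; -1.13 after quantile normalization). Txnrd3, a thioredoxin reductase, was lower at -0.45 (adjusted p = 0.026 in limma; -0.44 after quantile normalization).

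Of 5 genes of selenoprotein synthesis, the route that supplies selenocysteine to Gpx1 and the thioredoxin reductases, 0 were higher and 1 was lower, and 4 were lower after quantile normalization. Sephs2, which makes the selenium donor, read 2.36, 2.18 and 2.45 in control and 0.46, 0.29 and 0.59 in overexpression. The groups were far apart, and its 2 probes gave -1.89 and -1.90 (adjusted p = 0.00012 and 0.00014 in limma), with -2.06 and -2.01 after quantile normalization.

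Among 11 tested sources of superoxide and hydrogen peroxide, Cybb, the catalytic subunit of the phagocyte NADPH oxidase, was higher at 0.91 (adjusted p = 0.0059 in limma; 0.74 after quantile normalization) by a dim probe that did not pass after cyclic loess. Maoa, the outer-membrane monoamine oxidase, was lower at -0.50 (adjusted p = 0.023 in limma; -0.64 after quantile normalization), also by a dim probe. The other 9, with Cyba, Ncf1 and Rac2 among them, did not pass.

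Of 9 tested regulators, 2 were higher and 2 lower, and 1 and 2 after quantile normalization. Nfe2l2, which encodes NRF2, had the largest difference. By its NM_010902 probe it read 0.68 and 1.06 on control replicates 2 and 3, the first control spot having been dropped, and -1.17, -1.86 and -0.55 in overexpression (-2.07, adjusted p = 0.0043 in limma). Its second probe, of the non-coding NR_132727, gave 0.24 (adjusted p = 0.34 in limma). Ppargc1b, the close relative of PGC-1α, was lower by both probes at -0.86, fitted without control replicate 1, and -0.72. Foxo3, a factor known to induce Sod2 and Cat, was higher by both probes at 1.13 and 1.06 (1.12 and 1.04 after quantile normalization). Esrra, which encodes the nuclear receptor ERRα, a partner of PGC-1α, passed at 0.46 (adjusted p = 0.024 in limma) but not after quantile normalization (0.19).

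**Figure D5:**
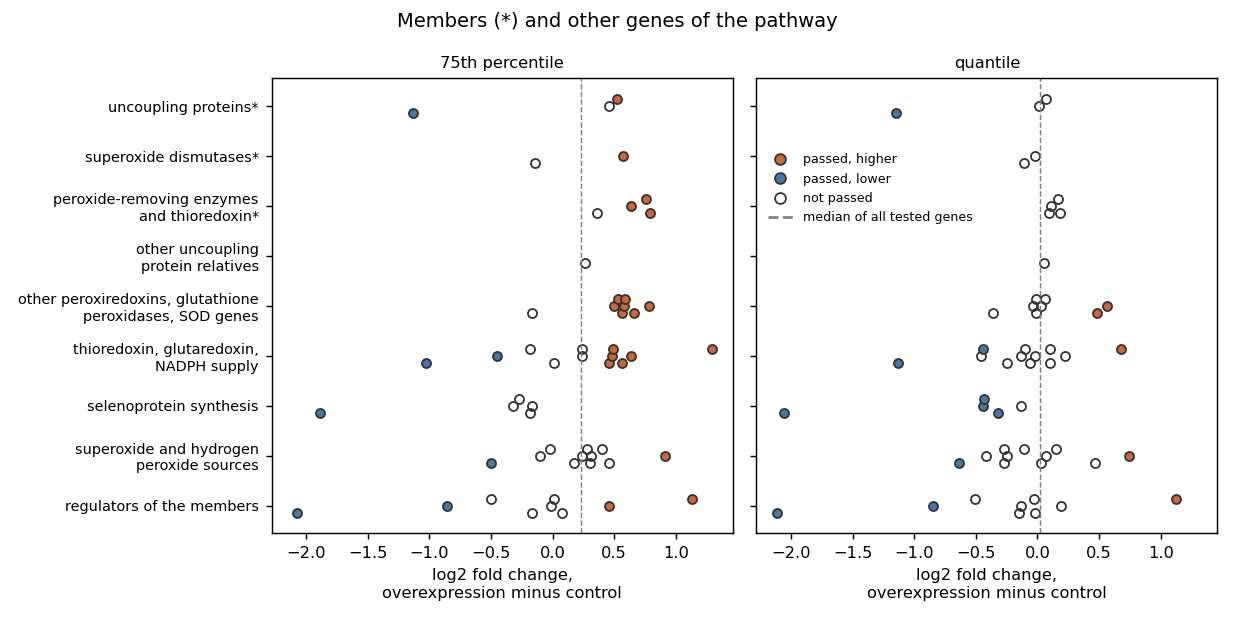
Log2 fold change (horizontal axis) of each tested gene by its brightest probe in the member groups (asterisk) and the 6 other lists, under 75th percentile scaling (left) and quantile normalization (right); filled circles passed. The dashed line is the median of all tested genes (0.23 and 0.02), and Sephs2 at -1.89 and Nfe2l2 at -2.07 are the leftmost points of their lists.

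Likeness was measured for the 2 members of largest absolute log2 fold change, as the root mean square difference of the 6 scaled log2 deviations from each gene's own mean, over 16235 genes. Each gene stood by its brightest tested probe, so the dim Slc25a14 probe had no part. Closest to the brighter Slc25a14 probe were Sh2b3 (0.034), Gpatch4 (0.035) and Pwwp2b (0.038), whose log2 fold changes were -1.11, -1.11 and -1.12. Closest to Gpx1 were Guca1a (0.024), Muc1 (0.024) and Gm6498 (0.026), at 0.79, 0.77 and 0.79. These distances rest on 6 arrays and on the normalization common to all genes of an array.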

How the data were processed

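The authors measured RNA of 6 samples on 1-colour Agilent arrays, 1 array a sample. The deposited files hold the processed intensity of each of 62976 spots, background-subtracted by the scanner software and not normalized across arrays. Also deposited by the authors were log2 values for 42110 probes, normalized in GeneSpring by a procedure not given in the sources used here, which served as an alternative. The dye is Cy3 in the labels but Cy5 in the methods, and the files hold the green channel only. Groups and replicate numbers came from the sample titles, which do not name the slide.

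The log2 intensity was expressed relative to the 75th percentile of the 59305 non-control spots of its array. Outlier spots (149 to 1590 an array) were dropped and repeated spots averaged. Of 56605 probes, 33767 (59.7%) were matched by accession to a gene of the RefSeq table of GRCm38; the array design names an older build. A probe was tested if well above background on all 3 arrays of a group, with values on 2 or more arrays of each group. The two-sided test of the groups was limma's (version 3.58.1, lmFit and eBayes, under R 4.3.3), and p-values of all 39295 probes were adjusted together by Benjamini-Hochberg, at a threshold of 0.05. The code was tested on simulated data. Tables, motif searches and plots used Python 3.11.15, numpy 2.4.6, pandas 2.3.3 and matplotlib 3.10.9.

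The members and lists were chosen with earlier results of these data known. All members were named with every probe; of the other lists, at most the 3 genes with the largest log2 fold change past the threshold in each direction. Other genes in the text were named after their values were seen. Likeness was listed for the 2 members with the largest absolute log2 fold change, 3 genes each. Alternatives were quantile normalization, normexp (offset 50) with either scaling, scaling to the median, filters, gene summaries, slide or replicate as a block, a robust variance trend, array weights, the authors' log2 values, outlier spots kept, each array left out, and cyclic loess, which was added after the data were seen. The number of arrays limits the precision, and the background that of dim probes.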

Additional observations from a re-analysis of the deposited data

How the results depend on the processing

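Over the tested member probes and 22 alternatives, 255 log2 fold changes were computed. Of these, 201 kept the direction and the side of the threshold, 29 no longer passed, 13 newly passed and 12 changed sign. The first Slc25a14 probe passed at a negative value in each alternative except the mean of both probes (-0.21, adjusted p = 0.42 in limma). Against 7 member probes that passed in the reported fit, 1 passed under quantile normalization, normexp with quantile normalization, the authors' log2 values and cyclic loess, and 5 to 8 passed when 1 array was left out, the 8 without overexpression replicate 3 including the first Ucp2 and the dim Slc25a14 probe but not the dimmer Txn2 probe. Signs turned for the second Ucp2 probe under quantile normalization (-0.04), normexp with quantile normalization (-0.18), the authors' values (-0.04) and cyclic loess (-0.05), for Ucp3 under normexp with quantile normalization (-0.06), for Sod1 under these first 3 (-0.02, -0.05 and -0.01), and for the dimmer Txn2 probe under normexp with quantile normalization (-0.02). Sod2 turned positive with array weights (0.04), without control replicate 3 (0.04) and without overexpression replicate 2 (0.01), and with 1 array left out it ranged from -0.32 to 0.04. The cause was not tested. Of all probes, 65.9% of calls were higher; this share was 76.7% when normexp preceded 75th percentile scaling, 49.0% when it preceded quantile normalization, 52.6% under the latter alone, 51.9% in the authors' values, 44.6% under cyclic loess, and 61.6% to 68.0% with 1 array left out. The count of 21018 probes became 9637 with the brightest probe of each gene and 9278 with the mean of its probes, where fewer features were tested, and 15583 to 21564 with 1 array left out. In the other pathway lists 22 genes passed, against 14 under quantile normalization, 13 with normexp and quantile normalization, 12 with no filter on dim probes, 13 on slide 1 alone, 34 with array weights, 13 in the authors' values, 14 under cyclic loess, and 11 to 22 with 1 array left out, of which 14 without control replicate 1, 11 without control replicate 2, 12 without control replicate 3 and 14 without overexpression replicate 1. The deviations of same-numbered arrays had correlations of -0.21, 0.00 and 0.59 for numbers 1, 2 and 3. Those of differently numbered arrays ran from -0.52 to 0.53. Number 3 is also the slide 2 array of both groups, so these values cannot decide whether the numbers pair the samples. With the replicate block, 22815 probes and 9 member probes passed, the added ones being the first Ucp2 probe (0.46, adjusted p = 0.048 in limma) and the dim Slc25a14 probe (0.70, adjusted p = 0.0093 in limma).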
